A study of Mus musculus with 10 samples.

Results

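Oxidative phosphorylation genes were compared between delta, beta and alpha cells of mouse islets. Of 19213 rows in the deposited expression table, 88 carry a symbol of a nuclear-encoded respiratory chain or ATP synthase gene (symbols beginning Nduf, Sdha to Sdhd, Uqcr, Cox4 to Cox8, Cyc1, Cycs or Atp5). They comprise 35 genes of complex I, 4 of complex II, 9 of complex III, 20 of complex IV, 15 of complex V, the cytochrome c gene Cycs, and 4 genes that share a symbol stem but encode no subunit (Sdhaf1, Sdhaf2, Atp5s and Atp5sl). The series holds 10 RNA-seq libraries from adult mice: 2 of delta cells (1 male, 1 female), 5 of beta cells (2 male, 3 female) and 3 of alpha cells (2 male, 1 female). All mice carried mIns1-H2b-mCherry, a nuclear red reporter under the mouse Ins1 promoter that marks beta cells, together with a floxed YFP allele. YFP was switched on by Sst-Cre in the mice used for delta cells and by Gcg-cre in those used for alpha cells, and beta cells were sorted from the islets of these same mice. A Cre reporter stays on once recombined, so YFP marks cells with a history of Sst or Gcg promoter activity as well as current activity. For each sort, islets from 10 to 12 mice of 1 sex were combined, kept overnight in medium with 5.5 mM glucose, dispersed with trypsin and sorted. The labels do not state which libraries share a pool, so every p-value below rests on differences among libraries that may be partly technical. Titles of beta replicates 4 and 5 share a number, as do those of alpha replicates 1 and 2. Each library is counted as a separate replicate here, so these replicates may not be independent.

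Oxidative phosphorylation takes place in the inner mitochondrial membrane. Complex I oxidises NADH and complex II oxidises succinate, complex III passes the electrons to cytochrome c, complex IV transfers them to oxygen, and complex V uses the resulting proton gradient to make ATP. In beta cells the ATP made from glucose closes ATP-sensitive potassium channels, which depolarises the cell and triggers insulin release, and alpha and delta cells carry the same channel. Several subunits of complexes IV and V exist as isoforms encoded by separate genes, some of them restricted to muscle, testis or lung, and nuclear respiratory factor 1, ETS-family factors and YY1 are known regulators of nuclear-encoded respiratory genes.

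Promoter sequences from RefSeq (GRCm38.p6; 250 bases before to 50 after the annotated start) were matched by symbol for 69 of the 88 genes. The nuclear respiratory factor 1 motif GCGCNTGCG, read on both strands, occurred in 24 of the 69 (34.8%), against 7.12% of the 27025 genes with a promoter in the same table. The ETS motif CCGGAAG occurred in 18 (26.1%, against 9.93%) and the YY1 motif AAGATGGCG in 7 (10.1%, against 1.64%). At least 1 of the 3 motifs was present in 41 promoters (59.4%, against 16.6%). The motifs do not overlap one another in the stretches printed here. These 4 stretches are shown because the complex II partners Sdha and Sdhd, which were called in opposite directions between delta and alpha cells as deposited, both hold the first motif, and because Cox6a1, the widely expressed partner of Cox6a2, and Atp5h hold the first motif together with the ETS motif. Each is written 5′ to 3′ on the coding strand from 150 bases before the RefSeq start, with motif matches in capitals, and ends 1 base before the start for Sdhd and Cox6a1 and 31 bases before it for Sdha and Atp5h.
Sdha (chr13:74350271-74350390, minus strand): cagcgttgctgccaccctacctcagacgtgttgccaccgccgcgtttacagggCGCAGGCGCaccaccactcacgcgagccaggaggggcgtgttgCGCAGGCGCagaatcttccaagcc
Sdhd (chr9:50603850-50603999, minus strand): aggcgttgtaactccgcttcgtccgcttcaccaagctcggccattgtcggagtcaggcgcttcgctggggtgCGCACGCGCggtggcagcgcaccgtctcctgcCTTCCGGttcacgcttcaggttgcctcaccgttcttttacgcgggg
Cox6a1 (chr5:115348959-115349108, minus strand): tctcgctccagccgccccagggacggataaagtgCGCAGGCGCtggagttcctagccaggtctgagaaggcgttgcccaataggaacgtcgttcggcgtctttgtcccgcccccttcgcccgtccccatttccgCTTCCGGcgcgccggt
Atp5h (chr11:115419950-115420069, minus strand): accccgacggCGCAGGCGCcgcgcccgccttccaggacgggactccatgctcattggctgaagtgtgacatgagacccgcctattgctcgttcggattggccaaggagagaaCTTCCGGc
In Sdha both matches are to the nuclear respiratory factor 1 motif. In Sdhd, Cox6a1 and Atp5h the upstream match is to that motif and the downstream one to the ETS motif. The first motif was present in 9 of the 29 promoters of genes called lower in delta cells against beta cells, and in 13 of those of the other 35 tested genes. For the ETS motif these counts were 8 of 29 and 10 of 35. Cox6a2, Uqcrq, Cyc1, Cox4i1 and Ndufb9 were among the genes not matched.

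Values are RPKM, read counts divided by gene length and by the library's total, so levels can be compared between genes. Library totals recovered from the table were 16688097 to 26684086 reads, and at 1 RPKM a gene of 1 kilobase rests on 16.7 to 26.7 reads. The 7 hormone genes (Gcg, Iapp, Ins1, Ins2, Ppy, Pyy and Sst) took 9.81% and 10.6% of the reads in delta libraries, 17.6% to 31.8% in beta and 27.5% to 30.9% in alpha libraries. Because RPKM are shares of a library, results are given as deposited and again after each library was divided by its median ratio to the geometric mean library, over 14196 genes above 0 everywhere. These ratios were 1.174 and 1.208 for delta, 0.8454 to 1.062 for beta and 0.8937 to 0.9983 for alpha libraries, so scaling lowers delta values in particular. Between delta and beta cells the median log2 fold change of all 12700 tested genes was 0.25 as deposited and -0.00 scaled. Defining markers followed the labels: Ins2 in delta libraries was 1.03% and in alpha libraries 0.752% of its beta mean, and Sst was 0.746% of its delta mean in beta and 3.23% in alpha libraries. Gcg in delta libraries was 8.72% of its alpha mean. The 2 pancreatic polypeptide cell markers Ppy and Pyy summed to 44200 to 44800 RPKM in delta, 808 to 1560 in beta and 9600 to 15200 in alpha libraries, and 8 immune cell markers to 61.7 to 78.2, 91.9 to 193 and 16.4 to 21.6 RPKM. Among the immune markers Cd74 averaged 50.6 RPKM in beta cells, 3.02 in delta cells and 2.10 in alpha cells, and Lyz2 and Tyrobp were at 0 in delta libraries. The part of these markers in the results was not tested. Beta replicate 1 stood apart. It held the highest of the 10 values for 53 of the 81 tested genes (65.4%), against 7.37% of all tested genes, and for 66 of 81 after scaling. It also had the largest hormone share (31.8%) and the largest summed level of 8 acinar markers, 9390 RPKM against 183 to 3770 in the other beta libraries. Their part in the results was not tested, and counts without this library are given beside the main counts.

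Beta cells had the highest median subunit level of complexes I, II and III, and the distance of delta and alpha medians below beta medians differed between complexes. Subunits with a mean of at least 1 RPKM entered, without the restricted isoforms of complex IV, and means carry the SD over libraries. The complex I median (34 genes) was 61.3 ± 1.59 RPKM in delta (n = 2), 72.2 ± 6.47 in beta (n = 5) and 57.4 ± 4.23 in alpha libraries (n = 3). For complex III (9 genes) it was 73.2 ± 5.21, 99.7 ± 8.11 and 71.8 ± 8.21 RPKM. Complex II (4 genes) stood at 83.1 ± 2.70 RPKM for delta, 101 ± 4.75 for beta and 70.3 ± 1.19 for alpha cells, with no overlap between any pair of cell types as deposited. As deposited, beta libraries did not overlap delta or alpha libraries for complexes I, II and III. For complex IV (12 genes) the levels were 119 ± 2.84, 134 ± 18.2 and 133 ± 2.51 RPKM, and for complex V (15 genes) 114 ± 1.88, 118 ± 10.4 and 112 ± 1.88 RPKM. Both delta and alpha libraries lay inside the beta range for complexes IV and V. Such a median follows the gene in the middle of its list, whereas fold changes follow each gene. In delta against beta cells the median log2 fold change per gene, as deposited, ordered the complexes otherwise. It was -0.263 (I), -0.255 (II), -0.147 (III), -0.326 (IV) and -0.286 (V). In alpha cells it was -0.35, -0.563, -0.4, -0.3 and -0.221.

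**Figure D1:**
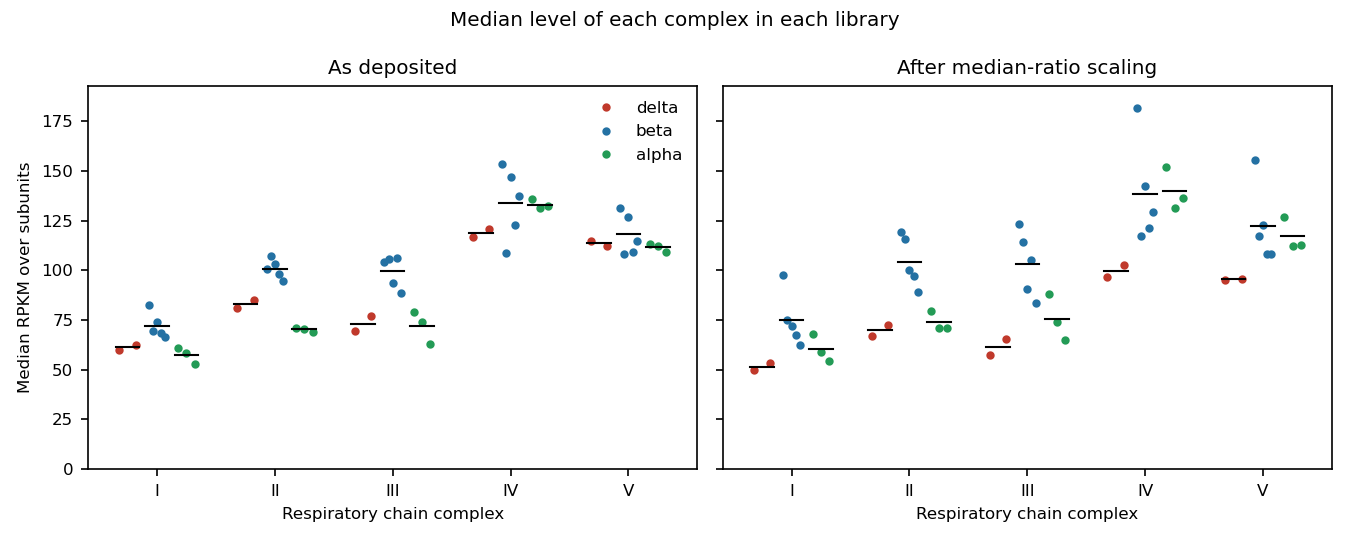
Median RPKM over the subunits of each complex (vertical axis) in every library, as deposited (left) and after median-ratio scaling (right), with points for libraries and black lines for group means. As deposited, delta and alpha libraries lie below all beta libraries for complexes I, II and III and inside the beta range for IV and V. After scaling, both delta libraries lie below all beta libraries in each complex.

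Scaling widened the distance of delta means from beta means and left that of alpha means nearly as it was. The delta mean was 84.9% (complex I), 82.4% (II), 73.5% (III), 88.7% (IV) and 96.2% (V) of the beta mean as deposited, and 68.7%, 66.9%, 59.5%, 72.0% and 78.0% after scaling. For alpha cells the deposited percentages were 79.5%, 69.7%, 72.1%, 99.5% and 94.4%, and the scaled ones 80.5%, 70.8%, 73.2%, 101% and 95.7%. Scaling also widened the beta range, so that alpha libraries then overlapped beta libraries for complex I (highest alpha library 68.2 RPKM, lowest beta library 62.5 RPKM) and complex III (88.3 and 83.4 RPKM), and delta libraries overlapped alpha libraries for complex II. The ratio of one complex to another within a library does not depend on the scale. The complex V median was 1.80 to 1.91 times the complex I median in delta, 1.56 to 1.73 times in beta and 1.86 to 2.08 times in alpha libraries, so beta libraries had the lowest ratio without overlap. The complex IV median was 2.23 to 2.51 times that of complex I in alpha libraries and 1.57 to 2.07 times in beta libraries. In bulk RNA from sorted cells, fewer cells of a type and less RNA per cell cannot be told apart. The reads of all 88 genes made up 0.633% and 0.664% of delta, 0.750% to 0.885% of beta and 0.584% to 0.655% of alpha libraries, and of the reads outside the 7 hormone genes 0.702% and 0.742%, 0.910% to 1.30%, and 0.811% to 0.949%.

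Delta cells had lower levels of many subunits than beta cells, in every complex. Genes were tested with limma on log2(RPKM + 1), which understates the change of low genes, with cell type and sex as terms, and are called at a Benjamini-Hochberg adjusted p under 0.05 over all 12700 genes tested; 81 of the 88 genes passed the filter of at least 1 RPKM in at least 2 libraries. Of these 81, 37 (45.7%) were called lower in delta cells, against 13.3% of all genes, and 1 was called higher, against 37.4% of all genes. After scaling 57 (70.4%) were lower, against 24.4%, and none was higher, against 24.6%. As deposited, 43 of the 81 had an unadjusted p under 0.05 in either direction, beside 7323 of all 12700 genes. The median log2 fold change of the 81 was -0.28 as deposited and -0.57 scaled. The gene called higher was Atp5s, which is no structural subunit (log2 fold change 0.61, limma adjusted p = 0.00992); it lost its call on scaling (adjusted p = 0.0541) and without delta replicate 1 (adjusted p = 0.163). Levels of 44 genes lay below all beta libraries in both delta libraries, where 16.4% of all genes did so, and those of 3 lay above, against 46.4%. After scaling these counts were 64 (against 30.0%) and 1 (against 30.0%). Without delta replicate 1 the median log2 fold change of the 81 was -0.17 (-0.40 after scaling). Fewer of the 81 and fewer of all genes were then called, on both scales. The delta library that remains is then assumed to vary as the other groups do. Without beta replicate 1 the count of lower genes was 32 (51 after scaling). Over all genes, calls in either direction then numbered 5923 (5580 after scaling), against 6442 (6216) with all libraries.

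Alpha cells also had lower levels of many subunits than beta cells, and as deposited complexes I and II had the largest shares of genes called (70.6% and 75.0%). After scaling these were complexes II and III (75.0% and 44.4%). Of the 81 genes, 50 (61.7%) were called lower by limma, against 30.3% of all genes, and 2 were called higher, Ndufa6 and Atp5e, against 23.7%. After scaling 33 (40.7%) were lower, against 29.0% of all genes, and the 2 higher genes were Atp5s and Atp5sl, against 27.8%. The median fold change was -0.34 as deposited and -0.33 scaled, beside -0.02 and -0.01 over all genes. Levels of 40 genes lay below all beta libraries in all 3 alpha libraries, against 29.2% of all genes, and 1 lay above, against 20.8%. After scaling these counts were 25 (against 27.1%) and 1 (against 25.7%), so the lower share of the 81 was then near that of all genes. Without alpha replicate 3 the count of lower genes was 30 (16 after scaling), and without beta replicate 1 it was 42 (24 after scaling). Calls over all genes, in either direction, were 4594 (5025) and 6446 (6430) there, against 6864 (7213) with all libraries. The scaled count of higher genes was 0 without alpha replicate 3 and 5 without beta replicate 1. The split also moved with other scales: with hormone genes left out of the scale 5 were higher and 29 lower, and after quantile normalization 17 were higher and 21 lower. Over all genes 7218 and 7013 were called in either direction on these 2 scales. Both comparisons use the same beta libraries.

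Fewer of these genes were called between delta and alpha cells, and the direction depended on the scale. As deposited, 12 of 81 genes (14.8%) were called higher in delta cells by limma, against 32.1% of all genes, and 4 (4.94%) were called lower, against 5.89%. The higher genes were Sdha, Sdhc, Sdhaf2, Ndufa8, Ndufa10, Ndufc2, Ndufs6, Ndufv2, Uqcrc2, Cox7a1, Cox7a2l and Atp5g1, and the lower ones Sdhd, Ndufa6, Atp5e and Cox5b. After scaling no gene was higher, against 14.5% of all genes, and 8 were lower, against 10.4%. The median log2 fold change was 0.06 as deposited and -0.24 scaled, beside 0.26 and -0.01 for all genes. Delta levels lay above all alpha libraries for 24 genes, against 60.0% of all genes, and below them for 15, against 11.0%; after scaling they lay above for 4 (against 32.3%) and below for 46 (against 29.3%). With hormone genes left out of the scale 0 were called higher and 12 lower, and after quantile normalization 0 and 32. Over all genes 3281 and 4003 were then called in either direction, against 4824 as deposited. With 1 delta library left, the median log2 fold change of the 81 was 0.16 without delta replicate 1 and -0.03 without delta replicate 2. After scaling it was -0.07 and -0.39. Fewer of the 81 and fewer of all genes were then called, on both scales. The count of higher genes was 3 without alpha replicate 3, where 3343 of all genes were called in either direction. Without beta replicate 1, 14 of these genes were higher and 4 lower as deposited, with 5383 of all genes called. The lower count was 2 without alpha replicate 1 or alpha replicate 3, with 3921 and 3343 of all genes called. After scaling it was 3 without alpha replicate 1, 2 without alpha replicate 3 and 17 without beta replicate 1. Over all genes 2785, 2269 and 3332 were then called in either direction, against 3170 with all libraries.

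**Figure D2:**
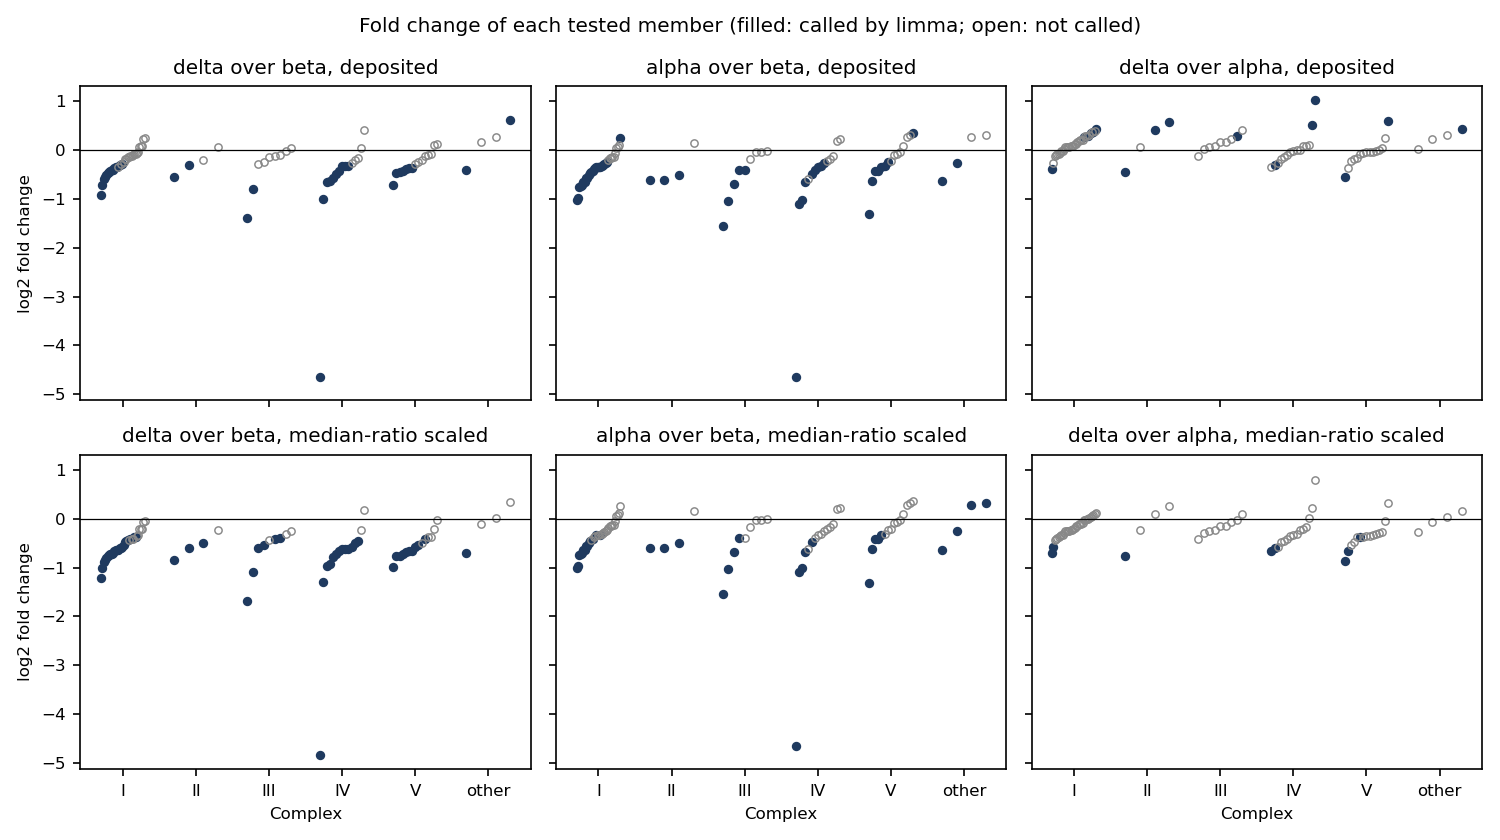
Log2 fold change of log2(RPKM + 1) (vertical axis) for each of the 81 tested genes, grouped by complex, for delta over beta, alpha over beta and delta over alpha cells, as deposited (top) and scaled (bottom). Filled points were called by limma and open points were not; Cox6a2 is the point near -4.65 in both deposited comparisons with beta cells, and the delta over beta points move down on scaling.

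Complex I, the NADH dehydrogenase, is built from a catalytic core and many accessory subunits. Of its 34 tested genes 15 (44.1%) were called lower than in beta cells in delta, against 13.3% of all genes, and 24 (70.6%) in alpha cells, against 30.3%. After scaling these were 24 (70.6%, against 24.4%) and 14 (41.2%, against 29.0%). Ndufb9, an accessory subunit of the membrane arm, showed the largest difference in delta cells. Its levels were 102 and 109 RPKM in delta, 237, 197, 202, 182 and 173 in beta and 108, 102 and 95.3 in alpha libraries. Beta libraries lay above all others without overlap, with log2 fold changes of -0.92 ± 0.11 (SE, adjusted p = 0.00013 by limma) in delta and -0.99 ± 0.10 (adjusted p = 3.21e-05) in alpha cells. Ndufc2, another accessory subunit of the membrane arm, had 117 and 121 RPKM in delta libraries, a median of 174 (156 to 210) in beta and 92.2, 90.9 and 84.6 in alpha. As deposited the 3 cell types did not overlap, and Ndufc2 had the largest fold of the complex in alpha cells (-1.02 ± 0.10). After scaling delta libraries (96.7 and 103.3 RPKM) overlapped alpha libraries (87.2 to 103.2 RPKM). Ndufv3, an accessory subunit of the NADH-binding module, fell by 0.72 in delta and by 0.65 in alpha cells on the log2 scale. Ndufa10, an accessory subunit, fell by 0.74 in alpha cells, Ndufb8 by 0.76 and Ndufa2 by 0.71.

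Ndufa6, an accessory subunit of the matrix arm, took another direction. Its levels were 140 and 145 RPKM in delta, 182, 137, 161, 151 and 150 in beta and 208, 188 and 174 in alpha libraries, and the highest beta library overlapped alpha cells. The alpha over beta fold change was 0.24 ± 0.09 (limma adjusted p = 0.042). This call was lost after scaling (0.26, adjusted p = 0.141) and without any library other than beta replicate 1 (adjusted p from 0.0509 to 0.134). Between delta and alpha cells it was -0.38 as deposited (adjusted p = 0.0202) and -0.69 scaled (adjusted p = 0.0135), with no overlap, and it was not called as deposited without delta replicate 1 (adjusted p = 0.271), alpha replicate 1 (0.0609) or alpha replicate 3 (0.0648).

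Complex II, succinate dehydrogenase, has 4 subunits and links the tricarboxylic acid cycle to the respiratory chain. Its flavoprotein gene Sdha and its membrane anchor gene Sdhd were called in opposite directions between delta and alpha cells as deposited. Sdha had 104 and 113 RPKM in delta, 94.8, 106, 113, 102 and 105 in beta and 73.7, 71.1 and 71.8 in alpha libraries. Alpha libraries were lowest without overlap on both scales. As deposited, delta lay within or at the edge of the beta range. After scaling both delta libraries (85.8 and 96.4 RPKM) lay below all beta libraries (98.8 to 114 RPKM). The log2 fold change was -0.51 ± 0.08 in alpha against beta cells (limma adjusted p = 0.000534; -0.50 scaled) and 0.57 ± 0.10 in delta against alpha cells (adjusted p = 0.00141), the latter not called after scaling (0.27, adjusted p = 0.15). Between delta and beta cells it was 0.06 as deposited and -0.23 scaled, neither called (adjusted p = 0.573 and 0.106), so its sign depends on the scale. It was -0.00 as deposited without delta replicate 2.

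Sdhd had 75.4 and 76.6 RPKM in delta, 92.3, 87.9, 104, 92.0 and 94.5 in beta and 103, 109 and 104 in alpha libraries. Delta libraries were lowest on both scales without overlap, while the highest beta library reached the alpha range. Its fold change between delta and alpha cells was -0.45 ± 0.09 (limma adjusted p = 0.00369) as deposited and -0.76 ± 0.11 (adjusted p = 0.000591) scaled; without delta replicate 1 the deposited adjusted p was 0.0656. Against beta cells Sdhd was lower in delta (-0.31, adjusted p = 0.0125; 0.144 without delta replicate 1 and 0.0549 without delta replicate 2) and was not called in alpha cells (0.15, adjusted p = 0.121). Sdhb, the iron-sulphur subunit, had 66.7 and 69.1 RPKM in delta, 85.8 to 119 in beta and 58.2 to 70.3 in alpha libraries. It was lower than in beta cells in both, by 0.55 (adjusted p = 0.00751) and 0.62 (adjusted p = 0.00192) on the log2 scale, and the delta call was lost without delta replicate 1 (adjusted p = 0.109). Sdhc, the other membrane anchor, was lower in alpha cells (-0.61, adjusted p = 0.000349) and in delta cells was called only after scaling (-0.20, adjusted p = 0.11 as deposited; -0.50, adjusted p = 0.0258 scaled).

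**Figure D3:**
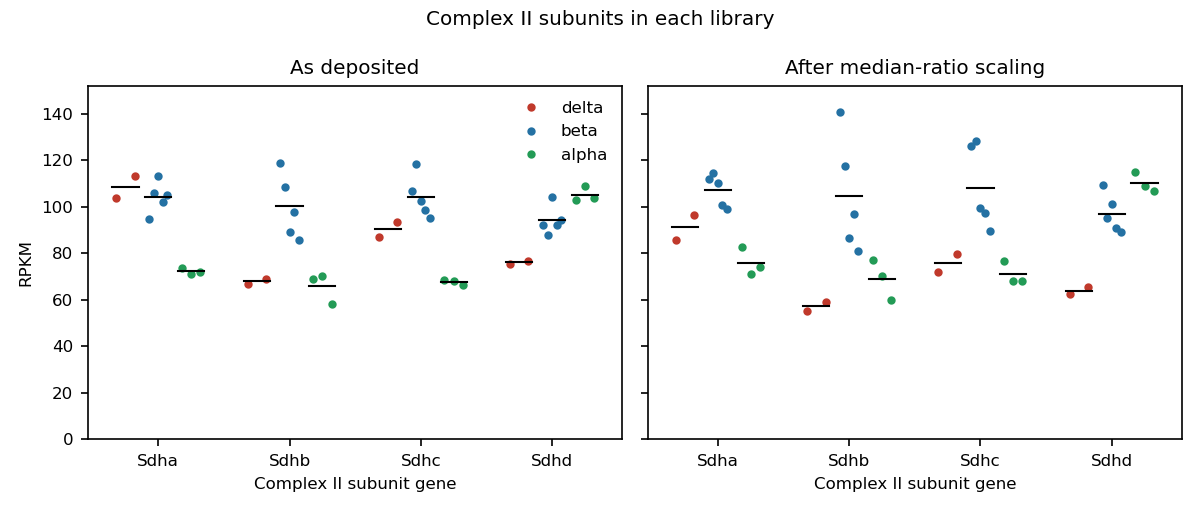
RPKM (vertical axis) of the 4 complex II subunit genes in every library, as deposited (left) and after median-ratio scaling (right); points are libraries and black lines are group means. As deposited, alpha libraries are lowest for Sdha and Sdhc. Delta libraries are lowest for Sdhd on both scales, and for Sdhc delta and alpha libraries overlap after scaling.

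Complex III passes electrons from ubiquinol to cytochrome c. Against beta cells, 2 of its 9 genes (22.2%) were called lower in delta, against 13.3% of all genes, and 5 (55.6%) in alpha cells, against 30.3%. After scaling these were 6 (66.7%, against 24.4%) and 4 (44.4%, against 29.0%). Uqcrq, the ubiquinone-binding subunit VII, carried the largest difference apart from Cox6a2. Its levels were 119 and 124 RPKM in delta, 405, 316, 272, 344 and 264 in beta and 126, 109 and 96.9 in alpha libraries. Beta libraries lay far above delta and alpha libraries, which overlapped each other. The log2 fold change was -1.39 ± 0.17 (limma adjusted p = 0.000144) in delta and -1.55 ± 0.15 (adjusted p = 2.88e-05) in alpha cells, and -1.68 and -1.53 scaled. Cyc1, the cytochrome c1 subunit, had 57.1 and 56.4 RPKM in delta, 109, 101, 93.5, 106 and 88.6 in beta and 52.0, 48.0 and 45.4 in alpha libraries, again without overlap between beta and other cells. It fell by 0.80 in delta and by 1.04 in alpha cells on the log2 scale. Uqcrc1, a core subunit, was lower in alpha cells (-0.70 ± 0.13, adjusted p = 0.00152). Uqcrfs1, the Rieske iron-sulphur subunit, was at 71.9, 69.6 and 69.5 RPKM on average in delta, beta and alpha libraries and was not called in any comparison as deposited.

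Complex IV, cytochrome c oxidase, held the gene with the largest difference of all, Cox6a2 (chr7:128205435-128206387 in GRCm38, minus strand, protein coding in GENCODE M21). Cox6a2 encodes the form of subunit VIa known from heart and skeletal muscle, and Cox6a1 the form found in most tissues. Cox6a2 had 0.976 and 1.88 RPKM in delta, 79.0, 84.2, 43.6, 68.6 and 37.0 in beta and 1.73, 0.989 and 1.39 in alpha libraries. These values rest on 13 and 23 reads in delta, 510 to 1365 in beta and 11 to 19 in alpha libraries. Every beta library was far above every other library, and the beta mean was 44.9 times the mean of the other 5 libraries. The log2 fold change was -4.65 ± 0.33 (limma adjusted p = 4.32e-06) in delta and -4.65 ± 0.29 (adjusted p = 2.06e-06) in alpha cells, and it was called under every alternative run.

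Cox6a2 in delta libraries was 2.29% of its beta mean, inside the range of 8 beta cell markers. Of these, Ins1, Ins2, Mafa, Ucn3 and G6pc2 were at 1.02% to 1.30%, Slc2a2 at 2.49%, Nkx6-1 at 6.99% and Pdx1, a factor that delta cells are known to share, at 76.5%. In alpha libraries Cox6a2 was at 2.19%, above Ins1, Ins2, Mafa, Ucn3 and Slc2a2 (0.692% to 1.42%) and below G6pc2 (2.56%), Pdx1 (3.96%) and Nkx6-1 (9.15%). How much of the signal in delta and alpha libraries came from beta cells or their RNA was not tested. Summed levels of 7 striated muscle markers were 1.82 to 2.83 RPKM in beta libraries, 1.47 to 1.87 in delta and 1.02 to 1.15 in alpha, far below Cox6a2 in beta cells.

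Cox6a1 was more abundant than Cox6a2 in every library. It had 161 and 178 RPKM in delta, 295, 283, 259, 258 and 243 in beta and 222, 209 and 184 in alpha libraries, and fell by 0.66 on the log2 scale in delta cells (limma adjusted p = 0.000908), a call held under every alternative run. Within the pair, Cox6a2 made up 0.603% and 1.05% of summed RPKM in delta, 21.1%, 23.0%, 14.4%, 21.0% and 13.2% in beta and 0.774%, 0.471% and 0.749% in alpha libraries. These shares do not depend on library scale. The beta share was higher by 17.7 percentage points than in delta cells (exact two-sided permutation p = 0.0952, the smallest possible with 2 against 5 libraries) and by 17.9 than in alpha cells (exact p = 0.0357, the smallest possible with 3 against 5; 0.153 after Benjamini-Hochberg adjustment over 30 such tests). No isoform share passed adjustment over the 30 tests.

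**Figure D4:**
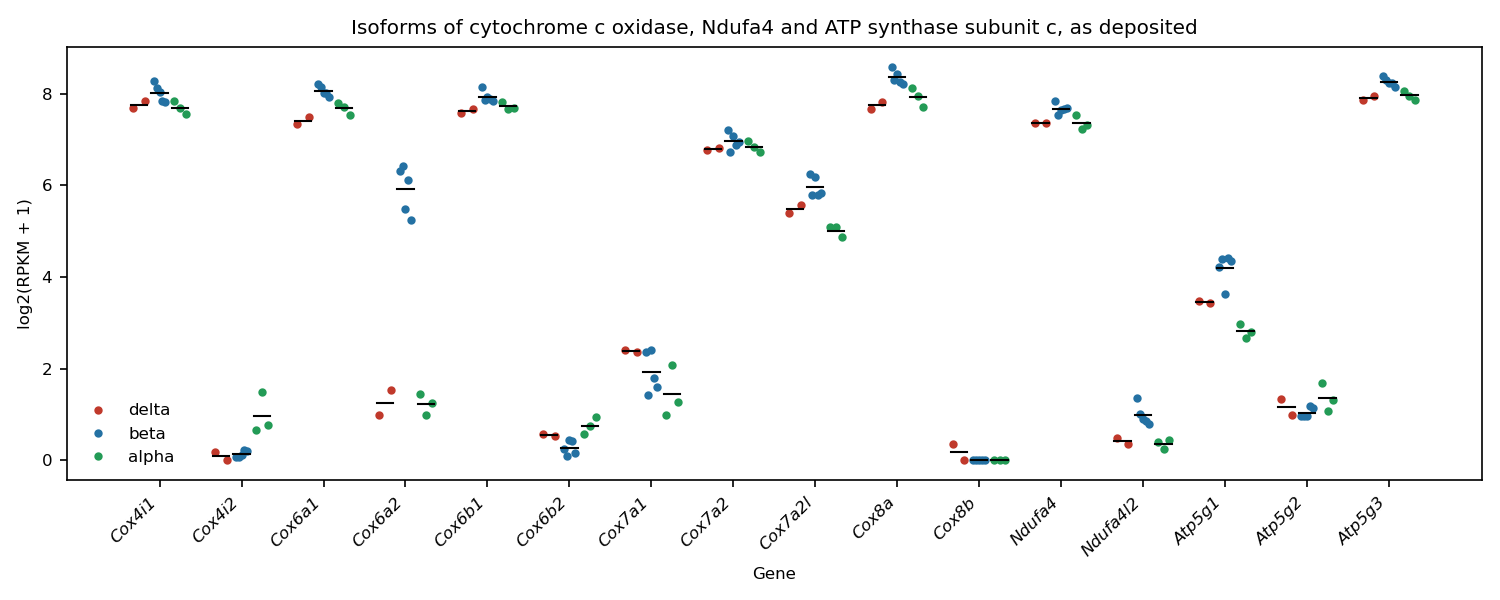
Log2(RPKM + 1) (vertical axis) of 16 genes of isoform families of complex IV, Ndufa4 and complex V subunit c in every library as deposited; points are libraries and black lines are group means. Cox6a2 lies at 37.0 to 84.2 RPKM in beta libraries against 0.976 to 1.88 RPKM elsewhere. Beta libraries also lie above all others, by smaller distances, for Cox6a1, Cox6b1, Cox7a2l, Cox8a, Atp5g1, Atp5g3 and Ndufa4l2.

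Other isoforms differed less. Cox7a2l, which takes part in respiratory supercomplexes, made up 31.0% to 34.0% of summed Cox7a1, Cox7a2 and Cox7a2l in beta, 26.9% and 28.8% in delta and 20.9% to 22.2% in alpha libraries, with no overlap between cell types (alpha against beta exact permutation p = 0.0357, adjusted 0.153). Its level was 74.5, 54.6, 71.2, 54.4 and 56.1 RPKM in beta, 41.3 and 46.8 in delta and 32.9, 33.1 and 28.1 in alpha libraries. The log2 fold change against beta cells was -1.01 ± 0.11 in alpha (limma adjusted p = 4.72e-05) and -0.50 ± 0.12 in delta cells (adjusted p = 0.0069; 0.138 without delta replicate 1). Cox7a1, the heart and muscle form, stayed at 0.982 to 4.33 RPKM in all libraries. Cox4i2, the lung and oxygen-responsive form of subunit IV, was at most 0.178 RPKM in delta and beta libraries and 0.577 to 1.79 RPKM in alpha libraries, beside 187 to 308 RPKM of Cox4i1. The alpha values of Cox4i2 rest on 7 to 22 reads. Summed levels of 8 pericyte and stellate cell markers were also highest in alpha libraries (3.43 to 3.81 RPKM, against 0.893 to 1.21 in delta and 0.323 to 1.39 in beta). The part of such cells in the Cox4i2 values was not tested. Cox6b2, Cox7b2, Cox8b and Cox8c, known from testis or muscle, were below 1 RPKM in every library. Ndufa4l2, the hypoxia-induced relative of the complex IV subunit Ndufa4, had 0.739 to 1.58 RPKM in beta and 0.184 to 0.411 in the other libraries, against 149 to 227 RPKM of Ndufa4.

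Of the 12 widely expressed complex IV genes tested, 8 (66.7%) were called lower than in beta cells in delta, against 13.3% of all genes, and 7 (58.3%) in alpha cells, against 30.3%. After scaling these were 11 (91.7%, against 24.4%) and 3, a share below the 29.0% of all genes. Cox5a, an electron-transfer module subunit of the matrix side, showed the largest difference among them. It had 37.5 and 46.1 RPKM in delta, 87.9, 82.5, 85.7, 83.4 and 85.9 in beta and 35.6, 42.5 and 38.0 in alpha libraries, so the beta libraries formed a narrow band above all others. The log2 fold change was -1.01 ± 0.10 (limma adjusted p = 4.94e-05) in delta and -1.11 ± 0.09 (adjusted p = 1.1e-05) in alpha cells, and -1.30 and -1.10 scaled. Cox5b, its neighbour in the complex, differed between delta and alpha cells (-0.30, adjusted p = 0.0378; -0.60 scaled), with adjusted p of 0.0528 to 0.332 when any of 7 libraries was left out, namely both delta, all alpha and beta replicates 3 and 5. Cox8a was at 201 and 226 RPKM in delta, 294 to 384 in beta and 207 to 280 in alpha libraries, and fell by 0.63 in delta cells on the log2 scale.

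By the level of the middle gene, complex V, the ATP synthase, had the delta median nearest to that of beta cells (96.2% as deposited, 78.0% scaled). The median log2 fold change of its 15 genes was -0.286 as deposited and -0.58 scaled, a larger drop than in complexes I, II and III. For alpha cells the complex IV median was nearer to beta (99.5% and 101%) than that of complex V (94.4% and 95.7%). By median log2 fold change complex V was the nearer one (-0.221 and -0.208). Widely expressed complex IV genes had -0.3 and -0.287. Of 15 genes 7 (46.7%) were called lower than in beta cells in delta, against 13.3% of all genes, and 7 in alpha cells, against 30.3%. After scaling these were 10 (66.7%, against 24.4%) and 5 (33.3%, near the 29.0% of all genes). Atp5b, the catalytic beta subunit, was the most abundant gene of the 88, with 371 and 377 RPKM in delta, 458 to 525 in beta and 338 to 388 in alpha libraries. Its log2 fold changes against beta cells were -0.39 in delta (limma adjusted p = 0.00818) and -0.44 in alpha cells (adjusted p = 0.0022). Without delta replicate 1 the delta fold was -0.36 and the call was lost. Beta libraries did not overlap the others as deposited. After scaling the highest alpha library (434.5 RPKM) lay above the lowest beta library (431.6 RPKM). Atp5a1, the alpha subunit beside it, was lower in alpha cells (-0.62 ± 0.09, adjusted p = 0.000346). Atp5g1, 1 of 3 genes for the proton-carrying subunit c, had 10.2 and 9.74 RPKM in delta, 17.7, 20.0, 11.3, 20.2 and 19.3 in beta and 6.90, 5.39 and 6.01 in alpha libraries. The cell types did not overlap, and the log2 fold change was -1.32 ± 0.17 (adjusted p = 0.000182) in alpha and -0.72 ± 0.19 (adjusted p = 0.0117; 0.146 without delta replicate 2) in delta cells. Atp5g3 supplied most of the 3-gene sum, 230 to 336 RPKM across libraries, and Atp5g1 2.12% to 6.36%. Atp5g1 and Atp5g2, unlike Atp5g3, have near-identical copies in other annotated genes, so these shares are uncertain.

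Atp5e, the epsilon subunit of the central stalk, was the complex V gene with a call in the other direction. It had 245 and 234 RPKM in delta, 356, 266, 271, 242 and 233 in beta and 404, 346 and 335 in alpha libraries, and beta replicate 1 overlapped the alpha range. The alpha over beta fold change was 0.35 ± 0.12 (limma adjusted p = 0.0279), and the call was lost after scaling (0.37, adjusted p = 0.115) and without beta replicate 3 (0.0808), beta replicate 4 (0.0511), alpha replicate 1 (0.0839) or alpha replicate 3 (0.15). Between delta and alpha cells, which did not overlap, it was -0.55 as deposited (adjusted p = 0.0137) and -0.86 scaled (adjusted p = 0.0188), and was not called as deposited without delta replicate 1 (0.16) or alpha replicate 3 (0.0641).

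Read counting may bear on some levels, which was not tested. Cycs, which encodes the electron carrier cytochrome c, was listed at 0.401 to 0.775 RPKM and Ndufs5, a complex I subunit, at 0 to 0.0846 RPKM, in libraries where Cyc1 stood at 45.4 to 109 RPKM. Of 87 genes with an annotated coding sequence, 22 had at least 80% of their coding bases at 95% identity or more in another annotated gene, Cycs and Ndufs5 among them. Among widely expressed subunits, 21 with such a copy had a median of 49.8 RPKM and 7 of them a mean under 20 RPKM (Atp5g1, Atp5g2, Atp5l, Cox7c, Cycs, Ndufb4 and Ndufs5), whereas 55 without one had a median of 95.4 RPKM and none was under 20. The sources used here do not say how reads shared between copies were assigned, so levels of the 22 are uncertain. Of the 61 tested genes without a copy, 31 (50.8%) were called lower in delta than in beta cells, against 13.3% of all genes. In alpha cells 42 (68.9%) were called lower, against 30.3%. After scaling these were 44 (72.1%, against 24.4%) and 29 (47.5%, against 29.0%). Cox6a2, Uqcrq, Cyc1, Cox5a and Ndufb9 are among these 61.

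**Figure D5:**
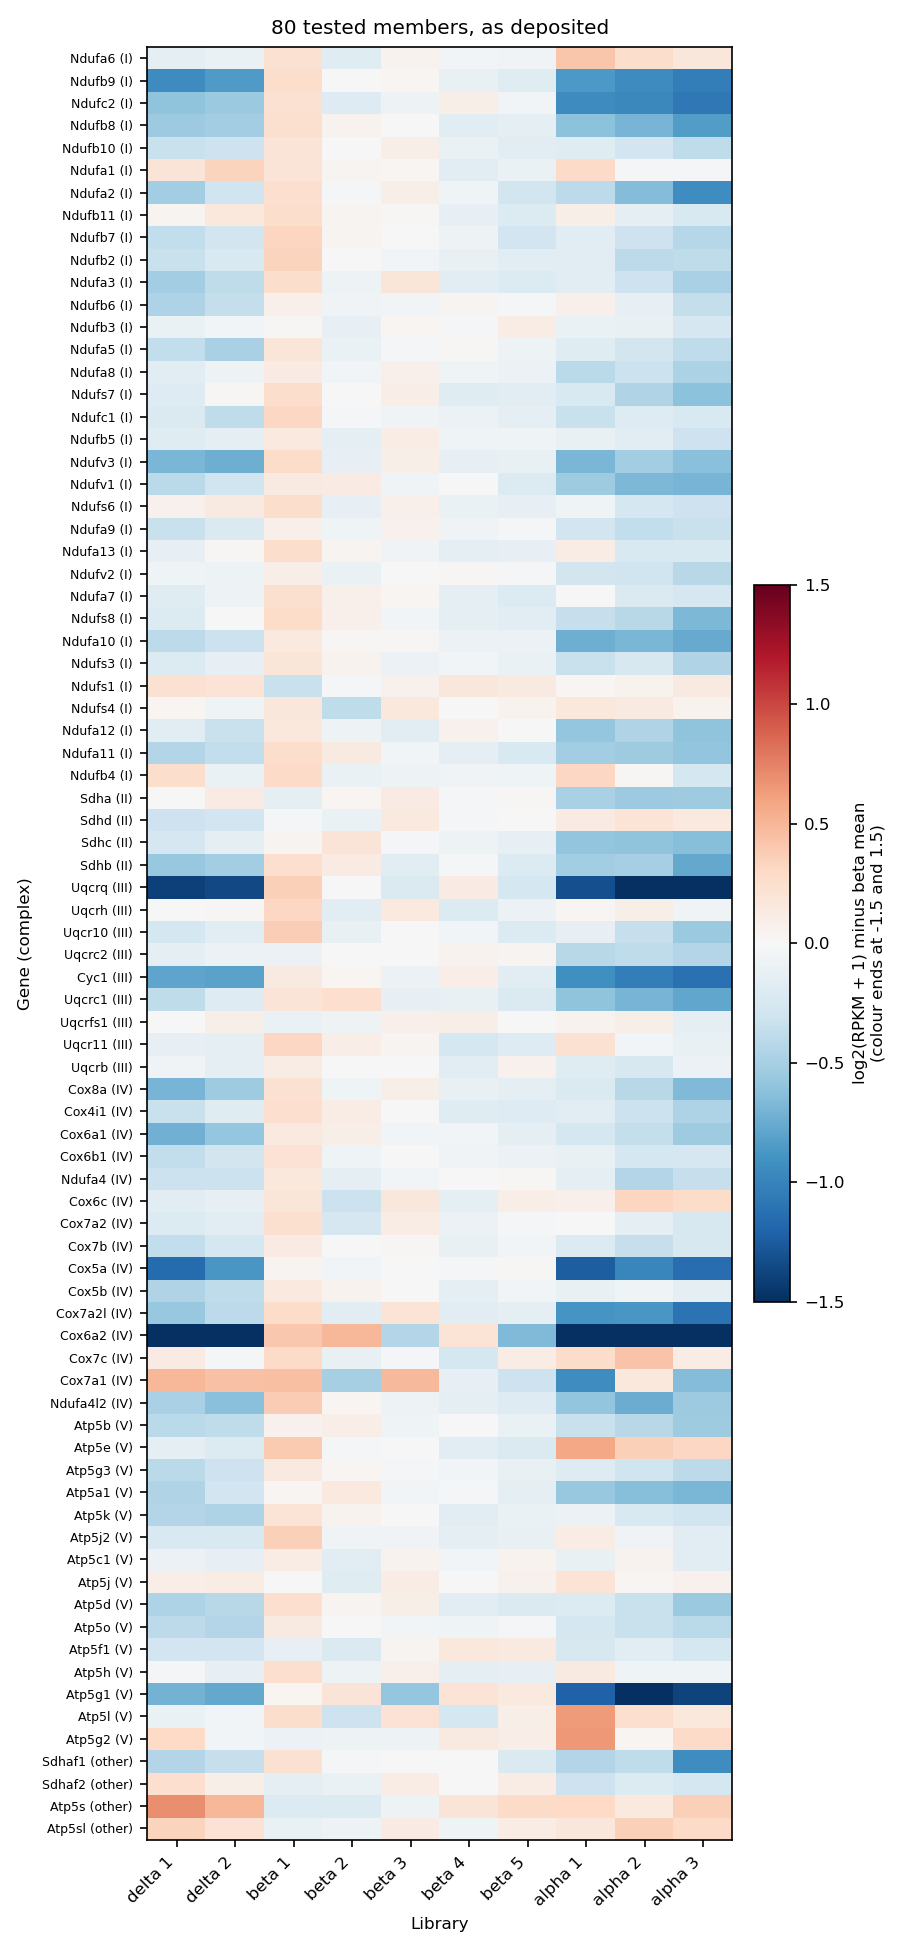
Log2(RPKM + 1) minus the mean of the beta libraries (colour, limited to -1.5 and 1.5) for 80 of the 81 tested genes (rows, by complex and falling mean level) in the 10 libraries (columns), as deposited. Beta replicate 1 is above the beta mean in most rows. Rows with the deepest blue in delta and alpha libraries are Cox6a2, Uqcrq, Cox5a, Ndufb9, Cyc1 and, in alpha libraries, Atp5g1, Ndufc2 and Cox7a2l.

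Sex made no called difference in these genes. By limma 0 of the 81 were called between male and female libraries (0.0472% of all genes were called), and the smallest adjusted p was 0.77. An unadjusted p under 0.05 was found for 8 of the 81, beside 634 of all 12700 genes. After scaling 0 were called as well, against 0.0551% of all genes. The median log2 fold change, male minus female, was 0.108 for the 81 as deposited, with 10 below 0. Over all 12700 genes it was -0.055, with 8290 below 0. After scaling the medians were 0.156 (4 below 0) and -0.016 (6904 below 0). Without the delta libraries 0 were called and 19 had an unadjusted p under 0.05. The count over all genes was not taken for that fit, so whether 19 is many cannot be said. An interaction of sex with cell type, tested in alpha and beta libraries, called 0 of the 81 and none at an unadjusted p under 0.05. With 1 female alpha library this test is weak.

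Other genes of the pathway were counted in lists chosen with earlier results of these data known. Of 40 assembly factors, which build the complexes, 5 (12.5%) were called lower than in beta cells in delta, near the 13.3% of all genes, and 16 (40.0%) in alpha cells, against 30.3%. After scaling 17 (42.5%) were lower in each, against 24.4% and 29.0% of all genes. As deposited 1 was higher in delta and 0 in alpha cells, and after scaling 0 in both. Uqcc2, a complex III assembly factor, was the most abundant at 182 ± 12.4 RPKM in delta (n = 2), 298 ± 58.6 in beta (n = 5) and 179 ± 26.1 in alpha libraries (n = 3). Surf1, needed to assemble complex IV, fell by 0.36 in delta (limma adjusted p = 0.00599) and by 0.74 in alpha cells (adjusted p = 4.01e-05). Of 20 other mitochondrial genes 6 (30.0%, against 13.3%) were lower in delta and 13 (65.0%, against 30.3%) in alpha cells, and 12 in each after scaling (60.0%, against 24.4% and 29.0%), with 0 higher in either on both scales. Vdac1, the outer membrane channel, averaged 161 RPKM in beta cells, 69.7 in delta cells and 66.4 in alpha cells, and Hspa9, the matrix chaperone mortalin, of 323, 148 and 81.7 RPKM. Both were called lower in delta and in alpha cells (Vdac1 -1.19 and -1.27, Hspa9 -1.10 and -1.95, limma adjusted p at most 0.000821).

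Calls of carriers and coupling proteins changed with the scale. Against beta cells, delta cells had 3 of the 9 tested called higher (33.3%, against 37.4% of all genes) and 1 lower (11.1%, against 13.3%), and 0 higher and 5 lower after scaling (55.6%, against 24.4%). Alpha cells had 3 higher (against 23.7%) and 3 lower (against 30.3%), and 3 and 1 after scaling. Higd1a, a hypoxia-inducible protein that binds complex IV, had 51.2, 82.6 and 59.6 RPKM in alpha, 6.63 and 3.59 in delta and 0.524 to 3.34 in beta libraries. The alpha libraries were far above all others, with a log2 fold change of 4.31 ± 0.29 over beta cells (limma adjusted p = 3.21e-06). Ucp2, the uncoupling protein known in islets, was higher than in beta cells in alpha cells (0.54, adjusted p = 0.0123; 0.55 scaled, adjusted p = 0.0271). In delta cells it was called as deposited (0.71, adjusted p = 0.00627) and not after scaling (0.41, adjusted p = 0.119). Of 11 hypoxia response genes, 1 was higher (9.09%, against 37.4% of all genes) and 3 were lower in delta cells (27.3%, against 13.3%), and 1 was higher (against 23.7%) and 2 were lower in alpha cells (18.2%, against 30.3%). After scaling 5 were lower in delta cells (45.5%, against 24.4%) and the other counts were the same. Epas1, which encodes HIF-2 alpha, was the higher gene in both (2.18 and 0.79).

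Among 13 tested regulators of mitochondrial genes, delta cells had 2 called higher (15.4%, against 37.4% of all genes) and 3 called lower than beta cells (23.1%, against 13.3%), and alpha cells 2 and 2 (15.4% each, against 23.7% and 30.3%). After scaling delta cells had 0 higher and 4 lower (30.8%, against 24.4%), and alpha cells 6 higher (46.2%, against 27.8%) and 2 lower. Nrf1, whose product binds the first motif above, had 5.84 and 5.64 RPKM in delta, 8.82, 8.08, 8.78, 11.1 and 8.31 in beta and 4.21, 5.20 and 3.84 in alpha libraries. Beta libraries were highest without overlap, with log2 fold changes of -0.57 ± 0.14 in delta (limma adjusted p = 0.01) and -0.90 ± 0.13 in alpha cells (adjusted p = 0.00036). Gabpb1, a partner of the ETS factor Gabpa, was higher in alpha cells (0.49, adjusted p = 0.00872; 0.50 scaled, adjusted p = 0.00181). In delta cells it was called as deposited (0.51, adjusted p = 0.014) and not after scaling (0.27, adjusted p = 0.0638). The 13 genes of the mitochondrial genome were not analysed here.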

How the data were processed

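RNA of sorted delta, beta and alpha cells was sequenced from 10 libraries made with a kit that does not mark strand, per the labels' protocols. RPKM values were deposited by the authors for 19213 genes. The submitters' processing notes name edgeR 3.12.0, featureCounts and STAR 2.4, with the build GRCm38.p3. Library totals were recovered from the steps between RPKM values.

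The genes were taken by symbol; the members and all lists were chosen with earlier results of these data known. Log2(RPKM + 1) was fitted with limma 3.58.1 (R 4.3.3; empirical Bayes with a trend) over 12700 genes of at least 1 RPKM in at least 2 libraries, modelling cell type and sex, with Benjamini-Hochberg adjustment over all of them and a threshold of 0.05. The fit had 6 residual degrees of freedom and was tested on simulated data. It was repeated after median-ratio scaling, without hormone genes in the scale, after quantile normalization, with other pseudocounts and filters, without sex, on 2 cell types, and without each library; scaling with a library left out, genes without copies and a replicate block were chosen after seeing the data. Isoform shares used exact permutation tests (scipy 1.17.1). Copies were found with BLAST 2.17.0. Named genes were picked among those of a fixed rule: isoform family members, up to 5 largest changes per complex and comparison, the 2 most abundant per complex, and calls against the main direction. From each pathway list the rule allowed up to 4 genes with the smallest adjusted p and the most abundant one. Results that name 1 of the genes are not reported here; it is counted in the totals.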

Additional observations from a re-analysis of the deposited data

Results flagged for a closer look

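Among 37 groups of 5 beta libraries checked, 1 held a value far from the others; chance flags about 1 group in 20. Atp5g1 was at 11.3 RPKM in beta replicate 3, against 17.7 to 20.2 RPKM in the other beta libraries. The gap was 0.727 of the whole range, above the critical value of 0.71 for 5 libraries. The gene has a near-identical copy elsewhere in the genome. Atp5g1 was called lower in alpha cells by limma under every alternative run.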

How the results depend on the processing

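The number of libraries limits precision: delta cells have 2. Cell types share no replicate numbers in the labels. In a fit chosen after seeing the data, libraries of 1 sex with adjacent title numbers were paired as a replicate block (4 pairs, 2 residual degrees of freedom). The deviations from group means of paired libraries correlated at 0.00144 to 0.464 over 12700 genes. With the block 3 genes were higher and 43 lower for delta against beta, 1 and 34 for alpha against beta, and 3 and 4 for delta against alpha, and 14 of 15, 20 of 21 and 3 of 5 named calls were made. Over all genes the block fit called 7906, 5748 and 5344 in either direction, against 6442, 6864 and 4824 in the main fit. Median-ratio scaling changed the counts of called genes to 0 higher and 57 lower (delta against beta), 33 lower (alpha against beta), and 0 higher and 8 lower (delta against alpha). With hormone genes left out of the scale they were 5 higher and 29 lower for alpha against beta, and 0 higher and 12 lower for delta against alpha. Quantile normalization gave 0 higher for delta against beta, 17 higher and 21 lower for alpha against beta, and 0 higher and 32 lower for delta against alpha. With only alpha and beta libraries fitted, 1 gene was higher.

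Leaving out 1 beta or alpha library gave 1 higher and 32 to 38 lower for delta against beta, with 5923 to 6661 of all genes called in either direction. For alpha against beta 0 to 3 were higher and 30 to 48 lower, with 4594 to 6926 of all genes called. For delta against alpha 3 to 14 were higher and 2 to 5 lower, with 3343 to 5383 of all genes called. After scaling these ranges were 0 to 1, 49 to 60 and 5580 to 6546 for delta against beta. They were 0 to 5, 16 to 39 and 5025 to 7399 for alpha against beta, and 0 to 1, 2 to 17 and 2269 to 3463 for delta against alpha. With 1 delta library left, the median log2 fold change of the 81 in delta against beta cells was -0.165 and -0.372. After scaling it was -0.401 and -0.715. Fewer of the 81 and fewer of all genes were then called in both comparisons with delta cells. The cause of these shifts was not tested.

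Outside the block, 1145 of 1283 alternative values of the 46 named fold changes kept the deposited direction and call, 106 lost a call, 19 gained one and 13 changed sign. The sign changes were those of Sdha between delta and beta cells: -0.23 after scaling, -0.36 to -0.12 after scaling with 1 library left out, -0.17 without hormone genes in the scale, and -0.004 to 0.12 as deposited on leaving out 1 library. Named calls held under every alternative in which the gene was tested for 8 of 15 genes in delta and 12 of 21 in alpha against beta cells. Between delta and alpha cells this was so for 0 of 5. Ndufa4l2, 1 of the 12, was tested in 23 alternatives and the other genes in 28. It passed the filter only through beta replicates 1 and 2 (1.58 and 1.02 RPKM), and its alpha values rest on 3 to 6 reads.

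Shares of RPKM + 1 moved low isoforms: Cox6a2 1.4% (delta) and 1.14% (alpha), Cox7a1 3.25% (delta) and 2.0% (beta), Atp5g1 4.36% (delta) and 2.74% (alpha), Ndufa4l2 0.816%, 0.969% and 0.774%, and Cox4i2 0.494%, 0.43% and 0.972% in delta, beta and alpha. Complex medians moved on scaling to 51.5, 69.8, 61.5, 99.8 and 95.5 RPKM in delta (I to V) and to 73.9 (II), 140 (IV) and 117 (V) in alpha. With all genes listed, complex I was 59.2 RPKM in delta, and complex IV was 40.9 in delta, 64.6 in beta and 35.1 in alpha.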
